A study of Mus musculus with 12 samples.

Results

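The genes described here are 9 listed factors of maternal mRNA storage and translational repression: Ybx2, Zar1, Zar1l, Cpeb1, Eif4e1b, Eif4enif1, Patl2, Lsm14b and Ddx6. They were listed by function, and all 9 were found among the 17012 genes listed in both deposited tables. The study used mouse embryos at the 2-cell stage, when transcription of the embryo's own genome begins. In the knockdown experiment, made on CF1 embryos labelled wild type (WT) or Eif1ad3_KD, control embryos carried the RNA-cutting enzyme RfxCas13d alone and knockdown embryos also received a reagent against Eif1ad3 and its relatives (2 libraries each). One part of the labels describes the enzyme as mRNA given to 1-cell embryos with a guide RNA, and another describes Cas13d protein given to oocytes with morpholino oligos. In the immunoprecipitation experiment, zygotes were given 200 ng/uL of mRNA coding for Eif1ad3 with a His tag, and RNA from 200 cells per replicate was recovered with an anti-His antibody or with negative-control IgG (2 libraries each). Both of these groups are labelled Eif1ad3_OE, so the IgG libraries also came from embryos given the tagged mRNA, and their strain is not given in the sources used here.

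Growing oocytes accumulate messenger RNAs that are packaged with proteins and kept from translation until maturation or early cleavage, when they are released in turn and then destroyed. Packaging proteins coat the message, factors bound to its tail region hold the poly(A) tail short, and proteins at the cap and in cytoplasmic granules keep the initiation machinery away. Many of these factors are made in the oocyte itself, and their own transcripts are maternal.

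Levels are CPM, reads scaled to a common library total, and fold changes are differences of log2(CPM + 1), which understate the change of low genes. Depth was 18173916 to 27902514 reads per library in the knockdown experiment and 4678563 to 8364126 reads in the immunoprecipitation, where IgG libraries were the shallower. The targeted gene Eif1ad3 was at 839 and 663 CPM in the controls and at 277 and 377 CPM in the knockdown libraries. Summed over the 13 listed markers of 2-cell genome activation, the level was 7142 and 6813 CPM in controls and 4986 and 5073 CPM in knockdown embryos. Of 12 cumulus and granulosa cell markers, 4 were in the knockdown table, and they summed to 5.94 to 13.8 CPM per library. The IgG replicates stood apart from each other: Pearson's r across 19390 genes on the log2 scale was 0.564, against 0.911 for His, and across the 17866 genes of the knockdown table it was 0.971 for controls and 0.932 for knockdown. Nothing in the labels says whether replicates A and B came from separate collections, so p-values measure only the spread between these libraries.

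In knockdown against control embryos none of the 9 storage factors passed in limma (adjusted p from 0.859 to 0.998), and 0% of the 13332 genes tested passed. None of the 9 had an unadjusted p under 0.05, and none passed with edgeR or DESeq2. Their median log2 fold change was 0.23, against 0.02 for all genes tested, and it ranged from -0.23 for Ybx2 to 0.73 for Cpeb1. Both knockdown libraries lay above both controls for Cpeb1 alone, against 18.1% of all genes, and below both for Ybx2 alone, against 18.4%. The spread between replicates was larger in knockdown than in control libraries, with a median SD on the log2 scale of 0.58 against 0.19 for the factors and 0.49 against 0.24 for all genes. Fewer embryos or cells carrying a transcript and less of it per cell cannot be told apart in these bulk libraries.

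**Figure D1:**
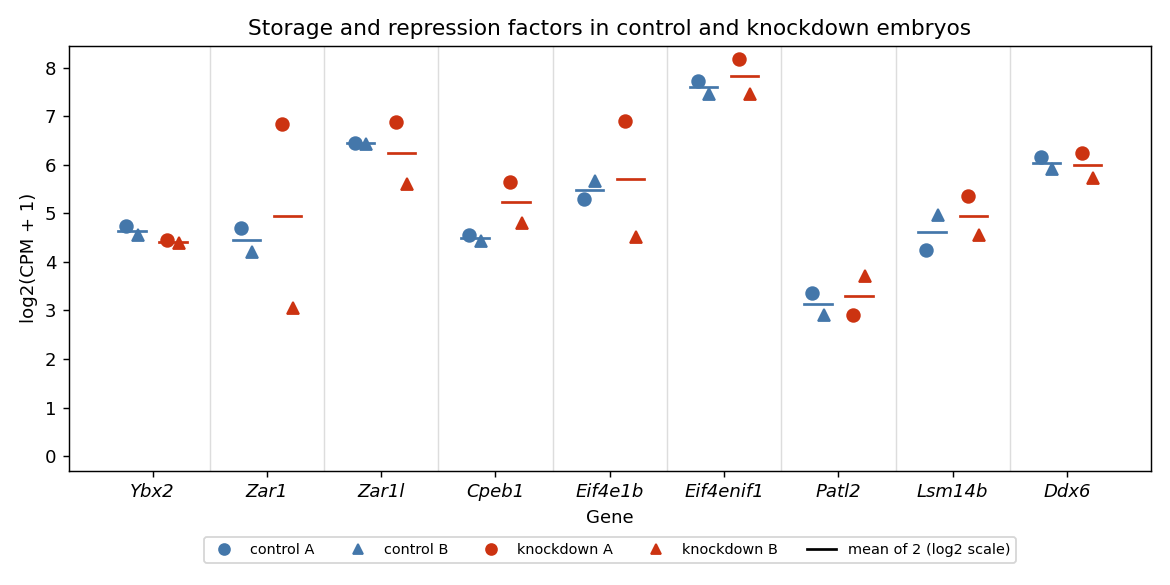
Levels of the 9 storage and repression factors in the 2 control and 2 knockdown libraries, as log2(CPM + 1). Each point is a library and each bar the mean of 2. The knockdown points of Zar1 and Eif4e1b lie far apart on either side of the control points, and those of Lsm14b are about as far apart as its controls.

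Among the packaging proteins, Ybx2, a germ-cell cold-shock domain protein that coats and stabilises stored mRNA, had 25.6 CPM in control A, 22.5 CPM in control B, 20.9 CPM in knockdown A and 19.9 CPM in knockdown B. Both knockdown libraries were slightly below both controls, and the log2 fold change of -0.23 (SE 0.43, limma adjusted p 0.969) had a 95% interval of -1.22 to 0.77. Zar1, an oocyte zinc-finger protein that binds and represses maternal mRNAs, behaved differently between the knockdown libraries. It was at 24.9 and 17.6 CPM in controls, at 114 CPM in knockdown A (3184 reads) and at 7.32 CPM in knockdown B (133 reads). The knockdown libraries thus differed 15.6-fold on either side of the controls, where 3.72% of all genes tested differed over 10-fold (values under 3 reads taken as 3 reads). Its mean of 60.7 ± 75.5 CPM (SD, n = 2) had a spread larger than the mean itself, and the log2 fold change of 0.50 (SE 1.04) had an interval of -1.89 to 2.88. The fold change was 1.42 in edgeR and 1.40 in DESeq2 on the reads recovered from the CPM, without passing (adjusted p 0.847 and 0.724).

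Zar1l, the relative of Zar1 with a like zinc-finger region, split the same way on a smaller scale. Its level was 86.3 and 85.4 CPM in controls, 117 CPM in knockdown A and 47.4 CPM in knockdown B. The log2 fold change was -0.20 (SE 0.47, limma adjusted p 0.978), and the groups overlapped.

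Cpeb1, the protein that binds the cytoplasmic polyadenylation element and holds tails short until maturation, had 22.6 and 20.6 CPM in controls and 49.4 and 27.0 CPM in knockdown. Both knockdown libraries were above both controls, an order that 18.1% of genes tested shared. The log2 fold change of 0.73 (SE 0.46, interval -0.33 to 1.80) did not pass (limma adjusted p 0.859). It ran from 0.31 to 1.16 with 1 library left out. Eif4e1b, the oocyte form of the cap-binding protein eIF4E, was at 38.1 and 49.7 CPM in controls, 119 CPM in knockdown A and 22.0 CPM in knockdown B, a 5.40-fold gap within the knockdown group. Its log2 fold change was 0.24 (SE 0.71, limma adjusted p 0.985), and the control values lay between the knockdown values. In edgeR and DESeq2 the fold change was 0.62 and 0.60 (adjusted p 0.896 and 0.934). Eif4enif1, or 4E-T, which links the cap-binding protein to repression complexes, was at 212 and 176 CPM in controls. It was at 290.0 CPM in knockdown A and at 176 CPM in knockdown B, which fell within the control range (log2 fold change 0.23, SE 0.37).

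Patl2, an oocyte form of the Pat1 decapping and repression factor, was the exception in direction. It was at 9.32 and 6.47 CPM in controls, 6.45 CPM in knockdown A and 12.2 CPM in knockdown B, so here replicate B was the higher library (log2 fold change 0.17, SE 0.56). Lsm14b, an RNA-granule protein required for storage in oocytes, was at 17.9 and 30.4 CPM in controls and at 40.0 and 22.4 CPM in knockdown A and B (log2 fold change 0.34, SE 0.50). Ddx6, a helicase of P-bodies and storage granules, showed little difference between the groups, at 71.0 and 58.9 CPM in controls and 75.3 and 52.1 CPM in knockdown. Its log2 fold change was -0.05 (SE 0.39), with an interval of -0.93 to 0.84 that does not exclude a change of moderate size.

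Knockdown A was above knockdown B for 8 of the 9 factors, all but Patl2, against 62.5% of all genes tested. Knockdown A lay above both controls for 7 factors (45.5% of all genes), and knockdown B lay below both for 5 (46.7%). Zar1, Zar1l, Eif4e1b and Ddx6 met both conditions, as did 2542 of 13332 genes tested. The median difference from the control mean was 0.59 in knockdown A and -0.26 in knockdown B, while all genes had medians of 0.14 and -0.17. The oocyte markers split more widely, at 0.95 and -1.27 over 14 genes tested, and knockdown A was above knockdown B for all 14. Knockdown A lay above both controls and knockdown B below both for 8 of these 14. Both knockdown libraries lay above both controls for Bmp15 and Oosp1, and below both for Zp3. Gdf9, an egg growth factor, and H1f8, the oocyte linker histone, were among the 3 markers over 10-fold apart. They were at 1005 and 91.2 CPM and at 1299 and 53.8 CPM in knockdown A and B. Their controls lay between (345 and 283 CPM for Gdf9, 176 and 195 CPM for H1f8). The 2-cell markers did not split in this way, with medians of -0.39 and -0.34. Knockdown B was also the shallowest library of the experiment and knockdown A the deepest. The part of oocyte content and depth in the split of the storage factors was not tested.

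**Figure D2:**
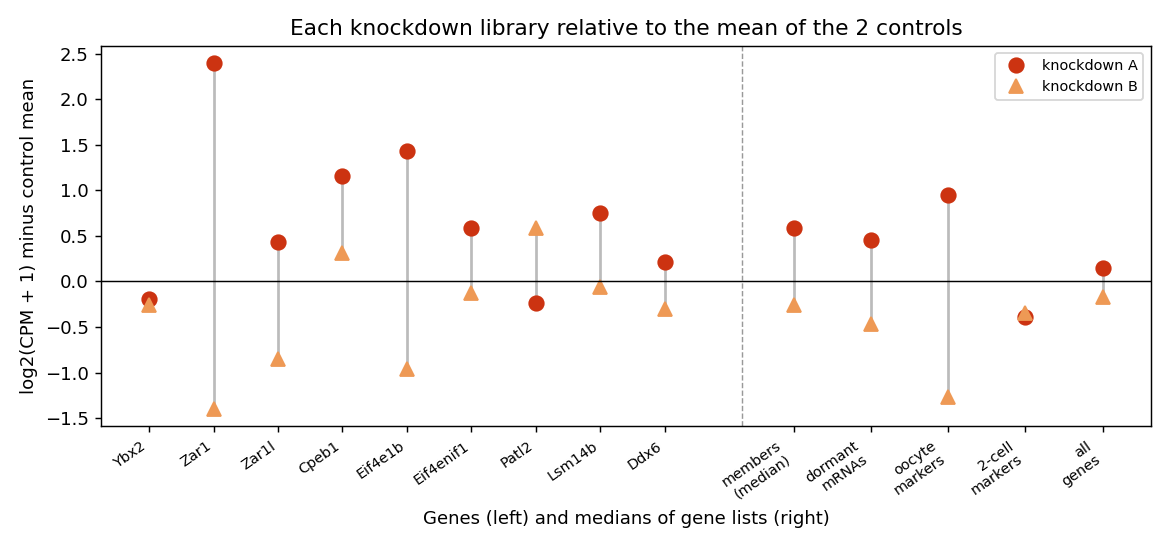
Difference of each knockdown library from the mean of the 2 controls on the log2(CPM + 1) scale, for the 9 factors (left) and as medians of gene lists (right). Knockdown A is above 0 and knockdown B below 0 for most factors, for dormant mRNAs and for oocyte markers, and both are below 0 for 2-cell markers.

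The call depended on which knockdown library was kept. Without knockdown B, Zar1 (log2 fold change 2.39, limma adjusted p 0.00172) and Eif4e1b (1.43, limma adjusted p 0.0197) passed as higher, as did 2.32% of all genes in that fit. Without knockdown A the fold changes of the same genes were -1.40 (adjusted p 0.0531) and -0.96 (adjusted p 0.0839), and no factor passed in a fit that called 15.1% of all genes. With 1 knockdown library left, that library is assumed to vary like the controls.

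The knockdown libraries lay 1.02-fold to 2.28-fold apart for 9 relatives of the factors. For the factors other than Zar1 (15.6-fold) and Eif4e1b (5.40-fold) they lay 1.05-fold to 2.46-fold apart. Eif4e, the general cap-binding protein, was at 2581 and 2575 CPM in controls and 2285 and 2879 CPM in knockdown, the latter 1.26-fold apart. Ybx1 was at 566 and 541 CPM in controls and 383 and 473 CPM in knockdown, and Ybx3 had a log2 fold change of -0.16. Eif4e2, a cap-binding repressor, was at 102 and 117 CPM in controls and 84.5 and 65.2 CPM in knockdown. Lsm14a, Patl1 and Cpeb4, relatives of Lsm14b, Patl2 and Cpeb1, were each higher in knockdown B than in knockdown A (479 against 308 CPM, 47.1 against 40.8 CPM and 160 against 70.3 CPM), which is the reverse of Lsm14b and Cpeb1 and the same order as Patl2. Cpeb2 had a log2 fold change of 0.55 and Cpeb3 of -0.04. None of these relatives passed by limma (adjusted p from 0.859 to 0.998).

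Wider lists of the pathway gave no call either. Of 33 tested partners in storage and repression (among them decapping enhancers, Pumilio and FMRP-family proteins), 0 passed in limma and 1 had an unadjusted p under 0.05, with a median log2 fold change of -0.04. Of 26 genes of cytoplasmic polyadenylation and the cap complex, 0 passed and 1 had an unadjusted p under 0.05 (median -0.11). Of 22 tested mRNAs listed here as dormant maternal mRNAs, 0 passed and 3 had an unadjusted p under 0.05 (median 0.11). Among all genes the share with an unadjusted p under 0.05 was 5.45%. Knockdown A was above knockdown B for 17 of the 22 dormant mRNAs but for 14 of the 33 partners, against 62.5% of all genes. The lists are not separate: the dormant list shares Gdf9, H1f8 and Mos with the oocyte markers, and Dazl, Dcp1a and Dcp2 with the partners.

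Genes with the smallest p in each list showed where single transcripts lay apart from the controls. The decapping activator Lsm1 was at 87.1 and 87.2 CPM in controls and at 174 and 142 CPM in knockdown, and Dazl, a germ-cell translation regulator, averaged 91.8 ± 9.60 and 173 ± 62.1 CPM (n = 2 each). Paip1, which binds poly(A)-binding protein, averaged 71.3 ± 1.58 and 148 ± 52.0 CPM, and Aurka, the kinase linked to activation of CPEB1, averaged 477 ± 60.7 and 286 ± 143 CPM. Cdc20, an activator of the anaphase-promoting complex, was at 302 and 403 CPM in controls and at 178 and 88.7 CPM in knockdown, with a log2 fold change of -1.46 (SE 0.41). Slbp, the histone mRNA stem-loop binder, was at 469 and 513 CPM in controls and at 1757 and 799 CPM in knockdown (log2 fold change 1.27, SE 0.41). All 6 had a limma adjusted p of 0.859.

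The immunoprecipitation asked which RNAs come down with tagged Eif1ad3, with IgG as background. In limma, 2 of the 9 storage factors, Cpeb1 and Patl2, were higher in His, where 35.7% of 11232 genes tested were called higher, and none was lower, where 0.917% were. Both were under 1 CPM in each IgG library, as 38.2% of genes tested were, and so met the filter on low values through the His libraries alone. Such genes could be tested only if both His values were above both IgG values, and they made up 3644 of the 4008 called higher, so nothing is read from the count of 2 or from either call. With no filter the same 2 factors were called and 20.5% of 16128 genes were called higher. The factors had a median log2 fold change of 2.05, beside 2.01 over all genes tested, and with no filter these medians were 2.05 and 1.24. On the recovered reads they were 0.25 and 1.56 in edgeR and -0.04 and 1.30 in DESeq2. With quantile normalization they were 1.60 and -0.08. They were 1.62 and 2.17 without IgG A, and 4.14 and 2.42 without IgG B. In the main limma fit Ybx2 alone was negative, while 4 of the 9 were above 0 in DESeq2. Recovery with His was even between replicates for 7 factors (1.08-fold to 1.47-fold apart). IgG recovery was not: with values under 3 reads taken as 3 reads, the IgG replicates were over 10-fold apart for 2 factors, Zar1l and Eif4enif1, and for 31.2% of all genes, and 3 factors had 0 reads in at least 1 IgG library, as did 59% of all genes.

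**Figure D3:**
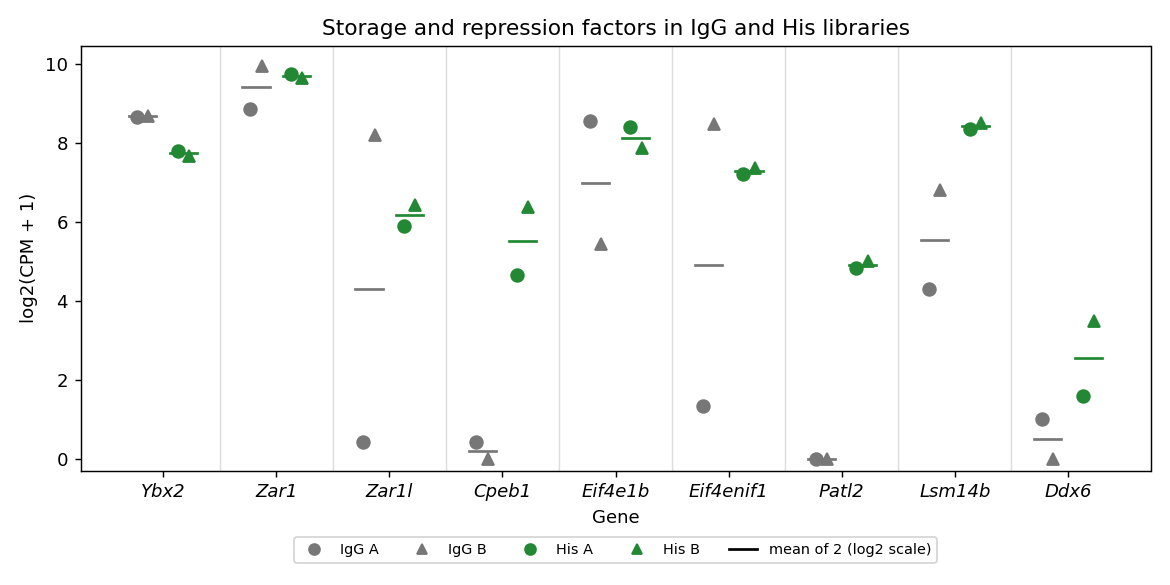
Levels of the 9 factors in the IgG and His libraries, as log2(CPM + 1), with each point a library and each bar the mean of 2. The IgG points of Zar1l and Eif4enif1 lie far apart, those of Cpeb1, Patl2 and Ddx6 sit near 0, and those of Ybx2 are above its His points.

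Ybx2 and Zar1 were abundant on the IgG beads. Ybx2 reached 408 CPM in IgG A and 413 CPM in IgG B, and 224 and 203 CPM in His A and His B. Both His libraries lay below both IgG libraries, an order that 9.06% of genes tested had. The 38.2% of genes under 1 CPM in both IgG libraries could not have this order, so the share among the rest is higher. The log2 fold change of -0.94 (SE 0.33, interval -1.93 to 0.04) did not pass in limma (adjusted p 0.122), and it passed in DESeq2 on the recovered reads (-1.28, adjusted p 0.00258), where 49.1% of all genes were called. Zar1 reached 471 CPM in IgG A and 1001 CPM in IgG B, and its His values of 868 and 801 CPM lay inside that range. Its log2 fold change of 0.28 (SE 0.44, interval -1.04 to 1.60) did not pass.

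For Zar1l, Eif4enif1 and Eif4e1b the direction hung on the IgG library. Zar1l had 0.338 CPM (2 reads) in IgG A and 293 CPM (1372 reads) in IgG B, and its His values of 59.1 and 85.5 CPM fell between. Eif4enif1 showed the same pattern, at 1.52 and 359 CPM in IgG and 149 and 164 CPM in His. Eif4e1b showed the opposite one, at 375 CPM in IgG A and 42.3 CPM in IgG B, with 342 and 233 CPM in His. None of these 3 passed (limma adjusted p 0.741, 0.634 and 0.615). With IgG A left out, the log2 fold changes of Zar1l and Eif4enif1 were -2.03 and -1.20 and that of Eif4e1b 2.71. With IgG B left out they were 5.75, 5.96 and -0.41. Zar1l, under 1 CPM in IgG A, then met the filter on low values through His alone, so its direction there was fixed.

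Cpeb1 and Patl2, like Ddx6, had few or no reads with IgG. Cpeb1 had 2 reads in IgG A and 0 in IgG B, and 24.2 and 82.5 CPM in His (202 and 653 reads). The reads pooled per group gave a His to IgG ratio of 278, with an exact 95% interval of 76.8 to 2303 for counting error only. Its log2 fold change was 5.31 (SE 0.83, interval 2.82 to 7.80, limma adjusted p 0.0198). Patl2 had 0 reads in both IgG libraries, where a floor of 3 reads corresponds to 0.506 and 0.641 CPM, and 27.5 and 31.2 CPM in His. Its mean of 29.3 ± 2.62 CPM in His was at least 51.1-fold higher than that floor averaged over the IgG libraries (limma adjusted p 0.00997). These p-values are given as a description, since both genes met the filter on low values through His alone. Both genes fell short of the threshold with edgeR on the recovered reads (adjusted p 0.0776 and 0.0547) and with quantile normalization (0.392 and 0.189). The fitted log2 fold changes in edgeR were larger, at 7.93 and 10.6, but with IgG at or near 0 reads they depend on the prior count and are no bound. With quantile normalization they were smaller, at 2.75 and 2.11. Neither could be tested with 1 His library left out, since it then missed the filter on low values.

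Lsm14b and Ddx6 had both His libraries above both IgG libraries, as 54.1% of all genes had. That share includes the 38.2% of genes under 1 CPM in both IgG libraries, which could be tested only in this order. Lsm14b had 18.7 and 112 CPM with IgG, and 330.3 and 363 CPM with His. Its log2 fold change of 2.88 (SE 1.13) did not pass in limma (adjusted p 0.154), and it passed in DESeq2 (2.23, adjusted p 0.0415), with its 49.1% of genes called. The value was 1.62 without IgG A and 4.14 without IgG B. Ddx6 was little recovered by either antibody, with 6 and 0 reads in IgG and 17 and 82 reads in His (2.03 and 10.4 CPM). Its log2 fold change was 2.05 (SE 0.86, limma adjusted p 0.179), and it ran from 1.10 to 3.001 with 1 library left out and turned to -0.92 with quantile normalization.

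**Figure D4:**
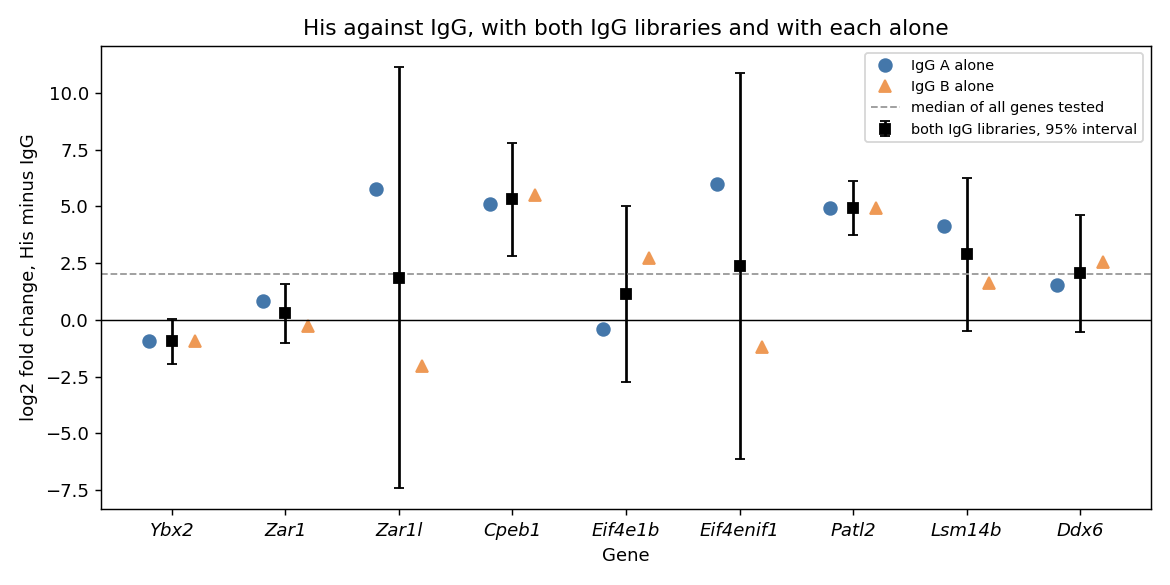
Log2 fold change of His over IgG for the 9 factors, with both IgG libraries (squares, bars for the 95% interval of limma) and with IgG A or IgG B as the only background library. Patl2 (4.92) and Cpeb1 (5.10 to 5.52), at 0 to 2 reads in IgG, had little or no room to move with the IgG library, while Zar1, Zar1l, Eif4enif1 and Eif4e1b change sign with the IgG library used.

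Left with IgG B alone or IgG A alone as background, 7 of the 9 factors passed in limma in either case, where 69.1% and 70% of all genes passed, but not the same 7. Without IgG A these were Cpeb1, Eif4e1b, Lsm14b and Patl2 as higher and Ybx2, Zar1l and Eif4enif1 as lower. Without IgG B, Cpeb1, Eif4enif1, Lsm14b, Patl2, Zar1 and Zar1l were higher and Ybx2 lower. Cpeb1, Patl2 and Lsm14b as higher and Ybx2 as lower were common to both fits, which share the His libraries, and 42.5% of 10797 genes tested in both were called in 1 direction in both. The lone IgG library is assumed in these fits to vary like the His pair.

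Among the relatives, Lsm14a was higher in His and passed: it had 2.70 and 3.42 CPM with IgG, and 77.2 and 76.7 CPM with His (limma log2 fold change 4.27, SE 0.75, adjusted p 0.026). The CPEB relatives Cpeb2 (log2 fold change 3.77, adjusted p 0.00998) and Cpeb3 (4.40, adjusted p 0.0318) were also called higher in His by limma, and Cpeb4 was not called (0.70, adjusted p 0.68). Cpeb2, at 0 and 0.427 CPM with IgG, met the filter through the His libraries alone, so nothing is read from its call. No gene was called with edgeR or quantile normalization, so the calls of these relatives were lost there (4592 and 2339 genes had an unadjusted p under 0.05). Ybx1 values overlapped, at 108 and 128 CPM with IgG and 109 and 116 CPM with His (log2 fold change -0.06, SE 0.61). Ybx3 had 0.844 and 221 CPM in IgG, the same split as Zar1l. Eif4e had 111 and 112 CPM with IgG and 200.3 and 213 CPM with His, without passing (limma adjusted p 0.32), and Eif4e2 (2.48, adjusted p 0.389) and Patl1 (0.39, adjusted p 0.942) did not pass either. The difference between a factor and its relative was not tested in either experiment.

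In the pathway lists every call was in favour of His, on a table where 35.7% of genes were called higher. None of these calls held with edgeR or quantile normalization, which called 0 genes. Genes under 1 CPM in both IgG libraries, which met the filter through His alone, made up 6 of the 9 calls among partners, all 3 in the polyadenylation and cap list and 3 of the 6 among dormant mRNAs. Eif4e3, Parn, Tent2 and Dazl were of this kind, and nothing is read from those calls. With genes that had 0 reads in both IgG libraries set to their lower bound against the floor, the median was 2.03 for the dormant mRNAs and 2.14 for all genes, and those of the factors and the other 2 lists were as given. Of 33 storage and repression partners tested, 9 were higher (median log2 fold change 2.10). The largest changes among those at 10 CPM or more were of Eif4e3, a further cap-binding protein, at 0.844 and 0.641 CPM in IgG and 76.2 and 55.4 CPM in His, and of Cpeb3 and Lsm14a. Of 26 genes of polyadenylation and the cap complex, 3 were higher (median 1.42), including the deadenylase Parn (log2 fold change 4.95, SE 0.65) and the cytoplasmic poly(A) polymerase Tent2 (4.35, SE 0.74), partners of CPEB1 with opposite effects on tail length. Of 22 dormant mRNAs, 6 were higher (median 1.93), including Dazl (4.25), Slbp (4.11) and H1f8 (4.10). Dazl is also among the 9 partners called. H1f8 had 365 and 133 CPM with IgG and 3870 and 3692 CPM with His, so it was recovered in quantity with IgG as well. All of these named genes had a limma call with adjusted p from 0.012 to 0.0318.

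Likeness to the factors was taken as Pearson's r between a gene's log2(CPM + 1) profile, centred within each table, and the mean centred profile of the 9 factors over 8 libraries. Among 5315 other genes at a mean of 10 CPM or more in each table, those close to it included Plekha8 (r = 0.995), Ociad1 (0.988), Pdlim1 (0.988) and Prr14 (0.988). These points share their libraries and the tables' scaling, and the mean profile is governed by the low value of IgG A (-1.88) against His A and B (0.89 and 1.32). The factors themselves were less uniform: r with the mean of the other 8 ran from 0.96 for Lsm14b to 0.03 for Eif4e1b and -0.83 for Ybx2.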

How the data were processed

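RNA was measured in 8 libraries of mouse 2-cell embryos (control, knockdown, His and IgG, 2 each). The library kits, per the labels' protocols, were Smart-seq2 and Nextera XT, which use no molecular identifiers. The deposited values are CPM; per the submitters' processing notes the tools were Trim Galore 0.6.7, FastQC, HISAT2 2.2.1, featureCounts 2.0.1 and edgeR, with build GRCm39, and the gene filter is not given in the sources used here. No coordinates are given, since the gene table at hand is of another build. The names of 4 value columns did not decide between the Input and total RNA samples, so they were not used and 3 of 5 planned comparisons were not run.

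All values (100% within 0.05 reads) were whole multiples of 1 read, which gave reads and totals. A gene was tested in a comparison if 2 or more of its libraries had 1 CPM or more; the test was limma 3.58.1 (R 4.3.3) on log2(CPM + 1) (eBayes with trend, two-sided, Benjamini-Hochberg over all genes tested, threshold 0.05). Intervals are limma's, unadjusted. Tables were normalized separately and tested separately. The scripts were tested on simulated data. Alternatives included count tests on those reads (edgeR 4.0.16; DESeq2 1.42.0), other pseudocounts, filters and scalings, the replicate block, and leaving out each library. The members and lists were chosen with earlier results of these data known. Named genes are the 9 factors, Eif1ad3, 9 relatives, and per list the 3 with the largest change past the threshold, or the 2 with the smallest p where none passed, at a mean of 10 CPM or more, plus the 5 closest profiles, not all of which are reported here; other genes were named after their values were seen.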

Additional observations from a re-analysis of the deposited data

How the results depend on the processing

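With 2 libraries per group the fits rest on few degrees of freedom, and low IgG depth limits what a value near 0 can show. In knockdown against control, the 0 genes called (726 at an unadjusted p under 0.05) became 2 with the replicate block and 15 with DESeq2, and ran from 0 to 1894 with a library left out; the storage factors called ran from 0 to 2 with a library left out and stayed at 0 in the other alternatives. No sign of a factor turned except with a library left out, where ranges were -1.40 to 2.39 (Zar1), -0.84 to 0.44 (Zar1l), -0.96 to 1.43 (Eif4e1b), -0.13 to 0.59 (Eif4enif1), -0.24 to 0.58 (Patl2), -0.060 to 0.75 (Lsm14b) and -0.31 to 0.22 (Ddx6).

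In His against IgG, the 4111 calls fell to 2356 when a mean of 5 CPM was required, to 0 with quantile normalization (2339 unadjusted) and to 0 with edgeR (4592 unadjusted, smallest adjusted p 0.0547), rose to 5513 with DESeq2, and ran from 6 to 7679 with a library left out. The 2 factors called became 0 by quantile normalization or edgeR and 4 by DESeq2, and ran from 0 to 7 with a library left out. Signs turned for Zar1 with median rescaling (-0.090) and DESeq2 (-0.076), Zar1l with edgeR (-0.92) and DESeq2 (-1.13), Eif4enif1 with edgeR (-0.11) and DESeq2 (-0.31), Eif4e1b with DESeq2 (-0.040) and Ddx6 with quantile normalization (-0.92). With a library left out the ranges were -0.26 to 0.82 (Zar1), -2.03 to 5.75 (Zar1l), -0.41 to 2.71 (Eif4e1b) and -1.20 to 5.96 (Eif4enif1). The median of all genes moved from 2.01 to -0.08 (quantile normalization), 1.56 (edgeR), 1.30 (DESeq2), 3.66 (pseudocount 0.1), 0.94 (pseudocount 5) and 1.24 (no filter). In the same order the factors' median moved from 2.05 to 1.60, 0.25, -0.04, 2.70, 1.10 and 2.05. Without His A or His B the median of the 7 factors tested was 2.12 or 1.43, beside 0.82 for all genes. The factors' median was 1.62 beside 2.17 for all genes without IgG A, and 4.14 beside 2.42 without IgG B. For these changes the cause was not tested. Same-letter deviations correlated at 0.146 and -0.01, the letters are not stated to pair libraries, and the replicate block changed no call of a factor.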
